A study of Mus musculus with 384 samples.

Results

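The tripartite motif (Trim) proteins are a large family of ubiquitin ligases and related proteins. This is an account of their transcripts in mouse macrophages given innate immune ligands. Members were chosen by symbol, Trim followed by a number with or without a closing letter, and by a summed count of 200 or more over all wells. The rule gave 33 genes. Such a symbol is carried by 65 of the 23481 rows, and of the rows left out 15 had no count in any well and 17 had a sum above 0 but under 200. Just inside the limit were Trim45 with 205 counts and Trim65 with 334, and just outside it Trim68 with 194 and Trim14 with 174. The members were selected on their total and not on any contrast, although a gene that many ligands raise reaches the total more easily. A filter on low counts passed 32 of the 33 members, all but Trim45.

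The cells were bone-marrow-derived macrophages from C57BL/6 males aged 13 weeks, either Myd88 KO or WT for Myd88, the adaptor through which most Toll-like receptors signal. Both genotypes were transduced with the same pool of pathway reporter viruses on day 4 of culture and replated on day 9, so every group carries those viruses. Each genotype filled 2 plates of 96 wells, here replicate 1 and replicate 2, with 1 well for each of 12 ligands at 0, 0.5, 1, 1.5, 2, 2.5, 3 and 4 h. The ligands were LPS, MDP/LPS, Poly(I:C), SeV, Zymosan, Pam3Cys, R848, CpG, FLA, MDP, TDB and HT-DNA, and the names are given as the labels spell them. The labels do not say which part of Myd88 is deleted or whether the plates came from separate mice, so p-values measure the spread between plates, which may be technical.

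A typical Trim protein has a RING domain that attaches ubiquitin, 1 or more B-boxes and a coiled coil, often followed by a domain that recognises the target. In macrophages several members act on the pathways that sense microbes. Trim25 and Trim56 are known as helpers of RNA and DNA sensing, Trim21 binds antibody-coated particles in the cytosol, and Trim30a is known in the mouse as a brake on Toll-like receptor signalling. Many members are themselves transcribed in response to interferon. Lipopolysaccharide (LPS) acts through both adaptors of the Toll-like receptors, Myd88 and Trif, and double-stranded RNA (Poly(I:C)) acts through Trif and through cytosolic sensors, whereas Pam3Cys, R848 and CpG act through Myd88.

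Single wells held 71720 to 767167 counts (the median well had 342561). Counts were added up within each plate. The 12 wells of time 0 gave 1 sum, and every ligand gave an early sum from its 0.5 and 1 h wells, a middle sum from 1.5 and 2 h and a late sum from 2.5, 3 and 4 h. Late sums held 314684 to 1876446 counts and time 0 sums 3167670 to 4901235. Levels are CPM, the gene's counts scaled to the total of the plate sum, with 2 plates per group. Log2 changes come with a standard error (SE) from 1 edgeR quasi-likelihood fit of all groups, and p-values were adjusted over the 10562 genes tested in each comparison. A change is called below an adjusted p of 0.05. The counts of Myd88 were 15.1 and 18.2 CPM on the KO plates, against 45.9 and 47.7 CPM on the WT plates. Because the counted tags come from transcript 3′ ends, these levels do not check a deletion elsewhere in the gene. The macrophage list had 9 of its 10 markers in the table, all at 1 CPM or more, with summed levels of 3791 to 3860 CPM on the KO plates and 3922 to 4016 CPM on the WT plates. Of the other lists counted, neutrophil markers summed to 119 and 132 CPM on the KO plates and 134 and 112 CPM on the WT plates, with 3 of 5 at 1 CPM or more. Dendritic cell markers summed to 10.9 to 16.3 CPM with Flt3 at 0, mast cell markers to 5.08 to 10.3 CPM, T cell markers to 2.49 to 3.96 CPM and fibroblast markers to 0.303 to 1.18 CPM.

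By these calls a small group of members rose late, and a majority passed no test. Of the 32 members tested, 8 rose late with at least 1 ligand, and 5 of these did so in both genotypes. The 8 were Trim30a, Trim30d, Trim21, Trim25, Trim12c, Trim56, Trim26 and Trim12a. How many of all genes rose with at least 1 ligand, or in both genotypes, was not counted. Trim8 was the only member called lower late against time 0, with Poly(I:C) in KO cells, about the share of all genes (3.09%). The calls came from 5 ligands alone, LPS, MDP/LPS, Poly(I:C), SeV and Zymosan. In KO cells 3 members rose with LPS (3.27% of all genes rose), 2 with MDP/LPS (3.38%), 5 with Poly(I:C) (4.86%), 3 with SeV (3.32%) and 3 with Zymosan (3.35%). In WT cells 4 members rose with LPS (4.54% of all genes), 5 with MDP/LPS (4.5%), 5 with Poly(I:C) (3.87%), 4 with SeV (2.53%) and 4 with Zymosan (3.6%). The median member did not move with them: with Poly(I:C) the median log2 change over members was 0.09 in KO and -0.06 in WT cells, beside -0.12 and -0.04 over all genes in KO and WT cells. The calls rest on both plates to an unequal degree. Without WT replicate 1 or 2 the 22 WT calls became 7 and 6, whereas without KO replicate 1 or 2 the 16 KO calls became 17 and 15. All groups share 1 estimate of the spread, which also changes with the plates left in. The SE of the Trim25 change with Poly(I:C) in WT cells was 0.26 with all plates, 0.44 and 0.43 without WT replicate 1 or 2, and 0.24 without either KO replicate. Why the WT calls ended was not tested.

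**Figure D1:**
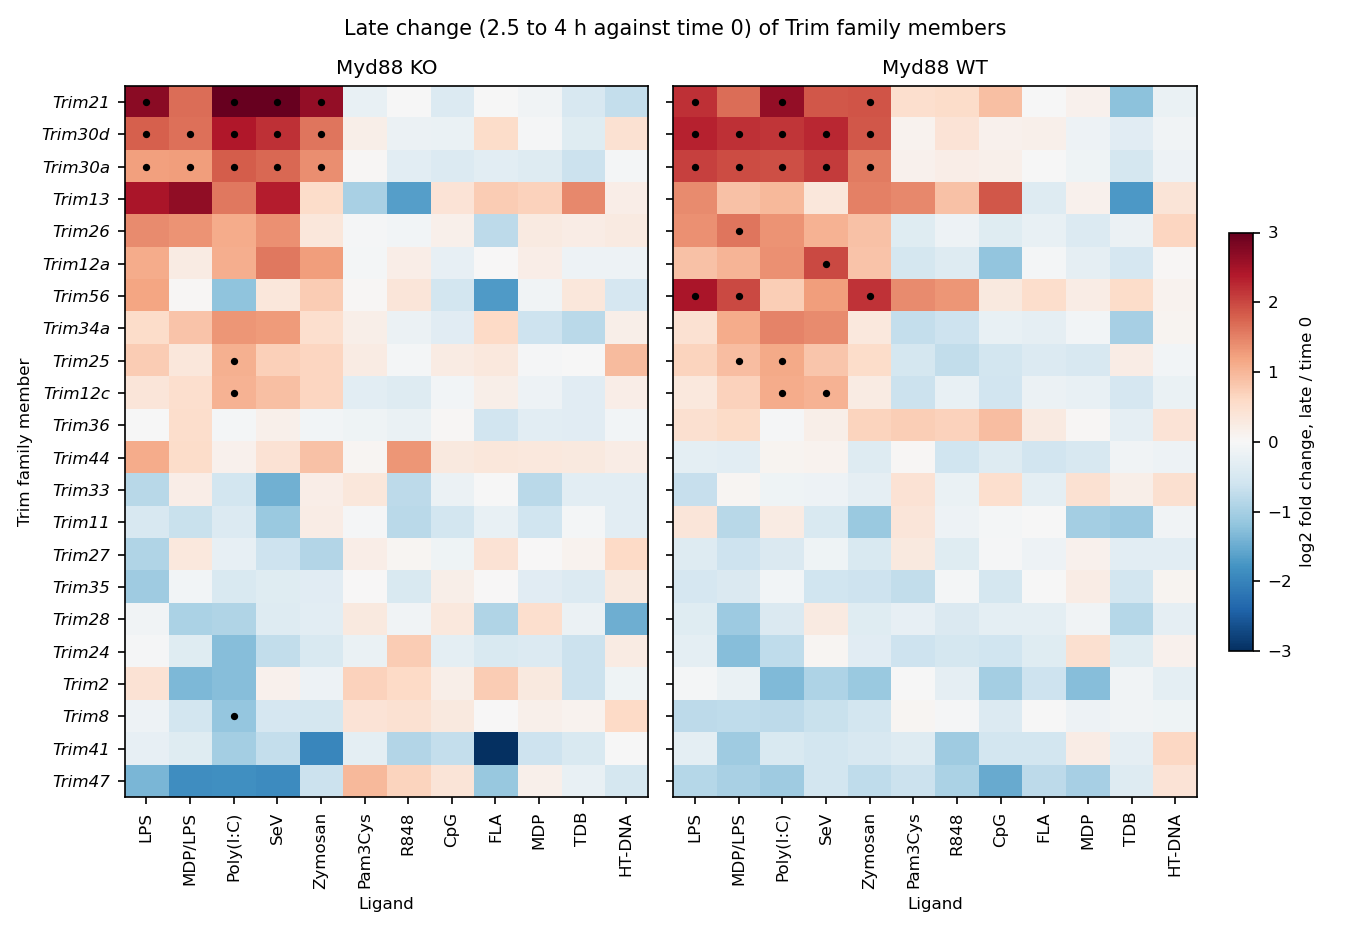
Log2 fold change of the late wells against time 0 for the 22 members at 10 CPM or more on average, by ligand, in Myd88 KO (left) and WT cells (right), with colours capped at 3. Black dots mark changes below an adjusted p of 0.05, which lie in the first 5 ligand columns.

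With the other 7 ligands, Pam3Cys, R848, CpG, FLA, MDP, TDB and HT-DNA, no member passed in either genotype. Over these ligands 0.116% of gene and ligand tests were called in KO cells and 1.19% in WT cells. The 7 were unlike in WT cells: Pam3Cys, R848, CpG and FLA raised 202, 195, 161 and 51 genes late. MDP, TDB and HT-DNA raised 3, 15 and 2. At an unadjusted p under 0.05 stood 7 of 224 member tests in KO cells (3.12%, against 3.79% of all tests) and 14 of 224 in WT cells (6.25%, against 5.33%). The lowest adjusted p among these member tests by edgeR was 0.206 in KO and 0.147 in WT cells.

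Trim30a and its neighbour Trim30d responded to the widest set of ligands. Both rose with all 5 ligands that gave member calls in both genotypes, and no other member did. They lie side by side in a run of 7 Trim genes on chromosome 7 (mm10), Trim30a at chr7:104409025-104465193 and Trim30d at chr7:104470014-104507849, both on the minus strand, with Trim34a, Trim12a, Trim34b, Trim12c and Trim30b before them. Trim30a, Trim30b and Trim30d, like Trim12a and Trim12c, are close relatives in sequence, and counting could have split or shared their tags, so values of single members of this run are uncertain.

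The promoters of 6 of the 8 members that rose late are shown because a motif was found in them, and it was not found in those of Trim25 and Trim56. The core of the interferon-stimulated response element, GAAANNGAAA, searched on both strands, was found in the promoters of 8 of the 24 members that have an entry in the RefSeq promoter table (GRCm38.p6, 250 bases before to 50 after a start), against 3.44% of the 32851 promoters in that table. The 8 are Trim12a, Trim12c, Trim2, Trim21, Trim26, Trim30a, Trim30d and Trim34a, and of these Trim2 passed no test and Trim34a had no late call. A gamma-activated site (TTCNNNGAA) was found for Trim45 alone among members, against 8.3% of all promoters, and an NF-kB site for none, against 4.51%. Members are counted as genes with a match in any of their promoters, whereas the percentages are shares of single promoters, so the units differ. Trim30a and Trim30d, like Trim12a and Trim12c, are close relatives, so their matches are not separate cases. These are matches of letters, not sites shown to be bound. In the following stretches, written 5′ to 3′ on the strand of the gene, capitals mark the match.
Trim30a, chr7:104465195-104465254, minus strand: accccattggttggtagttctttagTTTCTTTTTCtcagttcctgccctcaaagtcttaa
Trim30d, chr7:104507856-104507915, minus strand: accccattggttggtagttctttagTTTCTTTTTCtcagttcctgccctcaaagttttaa
Trim12a, chr7:104315466-104315495, minus strand: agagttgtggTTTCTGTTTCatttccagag
Trim12c, chr7:104353350-104353403, minus strand: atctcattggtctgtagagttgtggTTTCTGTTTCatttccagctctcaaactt
Trim21, chr7:102565447-102565476, minus strand: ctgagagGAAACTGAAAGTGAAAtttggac
Trim26, chr17:36836961-36837026, plus strand: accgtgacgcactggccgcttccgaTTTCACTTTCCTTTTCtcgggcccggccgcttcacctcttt
The Trim30a and Trim30d stretches are the same in 59 of 60 bases, and 28 consecutive bases of the Trim12a stretch recur in that of Trim12c. Trim21 and Trim26 each hold 2 overlapping matches.

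Trim30a stood at 663 and 619 CPM in the late LPS wells of the KO plates, against 315 and 323 CPM at time 0. On the WT plates it stood at 1583 and 1018 CPM with LPS, against 408.5 and 382 CPM at time 0. The late and time 0 plates did not overlap in either genotype. How many of all genes are so apart was not counted, here or in later paragraphs. The change of Trim30a with LPS was a log2 of 1.24 ± 0.25 (SE) in KO cells (edgeR adjusted p = 0.000172) and 2.04 ± 0.25 in WT cells (adjusted p = 1.35e-10). With Poly(I:C) Trim30a reached 1029 and 995 CPM on the KO plates and 1321 and 1337 CPM on the WT plates, changes of 1.82 ± 0.25 and 1.94 ± 0.25. With SeV the plates held 841 and 906 CPM of Trim30a in KO and 1497 and 1267 CPM in WT cells. With Zymosan they held 674 and 788 CPM in KO and 894 and 1075 CPM in WT cells. In the late wells of the other 7 ligands Trim30a ran from 191 to 344.5 CPM in KO and from 238 to 458 CPM in WT cells, with no call. The KO minus WT difference of the LPS change of Trim30a was -0.81 ± 0.35 (unadjusted p = 0.0217, edgeR adjusted p = 1), so a weaker rise in KO cells was not called. Without WT replicate 2 the Zymosan change of Trim30a in WT cells was 1.41 (edgeR adjusted p = 0.134).

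Trim30d, a mouse relative of Trim30a, followed it. Its late LPS level was 181 and 134 CPM in KO and 371 and 360 CPM in WT cells, against 59.0 and 47.0 CPM at time 0 in KO and 91.8 and 92.8 CPM at time 0 in WT cells. Late and time 0 plates were apart in both genotypes, again with no count over all genes. The log2 change of Trim30d with LPS was 1.80 ± 0.37 in KO (adjusted p = 0.00023) and 2.31 ± 0.36 in WT cells (adjusted p = 4.23e-07). Over the 5 ligands with member calls its changes ran from 1.59 with Zymosan to 2.41 with Poly(I:C) in KO cells, and from 1.86 with Zymosan to 2.31 with LPS in WT cells. Before any ligand acted, Trim30d was the only member with an unadjusted p under 0.05 between genotypes, at a log2 of -0.83 in KO against WT cells, and it was not called. Some Trim30d calls needed both plates. In KO cells the MDP/LPS change was 1.08 without KO replicate 2 (adjusted p = 0.203). In WT cells the LPS change was 2.25 without WT replicate 1 (adjusted p = 0.0584), the SeV change 2.13 without WT replicate 2 (0.0982), and the Poly(I:C) and Zymosan changes ran from 1.31 to 2.22 without either WT plate (adjusted p from 0.0639 to 0.935).

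Trim21, the cytosolic antibody receptor, gave the largest fold changes among the members called late. With Poly(I:C) it stood at 145 and 174 CPM in KO cells, against 15.6 and 24.1 CPM at time 0. In WT cells Trim21 stood at 155 and 134 CPM with Poly(I:C), against 18.8 and 34.7 CPM at time 0. The changes were 3.15 ± 0.60 in KO (8.89-fold, adjusted p = 3.25e-05) and 2.63 ± 0.58 in WT cells (6.17-fold, adjusted p = 0.000793). Trim21 also rose with LPS and Zymosan in both genotypes. With SeV the KO change was called (3.01 ± 0.60, 94.9 and 171 CPM) and in WT cells Trim21 stood at 76.8 and 80.8 CPM without a call. With MDP/LPS it was called in neither, at 63.4 and 42.7 CPM in KO and 75.4 and 60.1 CPM in WT cells. Every Trim21 call in WT cells ended without either WT plate, with changes of 1.49 to 3.27 and adjusted p of 0.11 to 1.

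Trim25, which ubiquitinates the RNA sensor RIG-I, and Trim12c, a mouse relative of the human restriction factor TRIM5, rose about 2-fold with Poly(I:C) in both genotypes. Trim25 stood at 275 and 256 CPM with Poly(I:C) in KO cells, against 153 and 128 CPM at time 0. In WT cells it stood at 331 and 312 CPM, against 168.5 and 167 CPM at time 0. The changes were 1.07 ± 0.26 in KO (adjusted p = 0.0018) and 1.13 ± 0.26 in WT cells (adjusted p = 0.00103). Trim25 also rose with MDP/LPS in WT cells (0.93 ± 0.26, adjusted p = 0.01). With HT-DNA it stood at 236 and 258 CPM on the KO plates, above time 0, in a change that was not called (0.94 ± 0.26, adjusted p = 0.206). Trim12c stood at 271 and 240 CPM with Poly(I:C) in KO cells, against 124 and 154 CPM at time 0, and in WT cells at 296 and 275 CPM, against 156 and 144 CPM at time 0. For both genes the 2 late Poly(I:C) plates lay above the 2 time 0 plates of the same genotype. How often this holds over all genes was not counted. Trim12c also rose with SeV in WT cells (1.03 ± 0.30, adjusted p = 0.0322). In KO cells its SeV change was 0.89 ± 0.30, not called (adjusted p = 0.082). The SeV changes of Trim25 were 0.72 ± 0.26 in KO and 0.83 ± 0.26 in WT cells, not called (adjusted p = 0.129 and 0.0562). The LPS change of Trim25 in KO cells was 0.76 ± 0.26, not called (adjusted p = 0.0836). Poly(I:C) was not tested against SeV or LPS. Without KO replicate 2 the KO change of Trim25 with Poly(I:C) was 1.01 (adjusted p = 0.0564), and that of Trim12c was 0.85 without KO replicate 1 (0.174), 1.07 without WT replicate 1 (0.0857) and 1.08 without WT replicate 2 (0.0788). The WT calls of both genes ended without either WT plate, with changes of 0.82 to 1.21.

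Trim56, known for help to STING and Toll-like receptor signalling, was called late in WT cells alone, with 3 ligands. In WT cells it rose with LPS to 254 and 222 CPM, against 60.6 and 48.0 CPM at time 0, a change of 2.46 ± 0.59 (5.49-fold, edgeR adjusted p = 0.00243). It also rose in WT cells with MDP/LPS (1.98 ± 0.58, 172 and 166 CPM) and with Zymosan (2.17 ± 0.58, 186 and 226 CPM). Poly(I:C), the ligand with most calls among the other members, left Trim56 at 55.9 and 103.5 CPM in WT cells without a call. The SeV change of Trim56 in WT cells was 1.26 ± 0.58, not called (edgeR adjusted p = 0.482). Neither Poly(I:C) nor SeV was tested against LPS. In KO cells Trim56 passed with no ligand, and with LPS it stood at 86.5 and 81.2 CPM, against 55.6 and 30.2 CPM at time 0. Pam3Cys and R848, which need Myd88, gave WT levels of 138 and 132.5 CPM and of 114 and 134 CPM, above both time 0 plates, with changes of 1.41 ± 0.57 and 1.33 ± 0.58 that were not called (adjusted p = 0.28 and 0.36). On the KO plates Trim56 was at 45.8 and 44.7 CPM with Pam3Cys and at 59.7 and 44.5 CPM with R848. The KO minus WT difference of the late change was not called for any ligand. For Trim56 it was below 0 with all 12 ligands, from -0.22 with TDB to -2.24 ± 0.93 with FLA. With the 3 ligands of a WT call it was -1.27 ± 0.82 with LPS, -1.94 ± 0.84 with MDP/LPS and -1.41 ± 0.81 with Zymosan, with unadjusted p of 0.126, 0.0238 and 0.0861. It was -1.95 ± 0.84 with Poly(I:C) (unadjusted p = 0.0232). The ligands share the time 0 wells, and how many of all genes lie below 0 with all 12 was not counted. All 3 calls of Trim56 ended without either WT plate, at changes of 1.89 to 2.50 and adjusted p of 0.523 to 1.

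**Figure D2:**
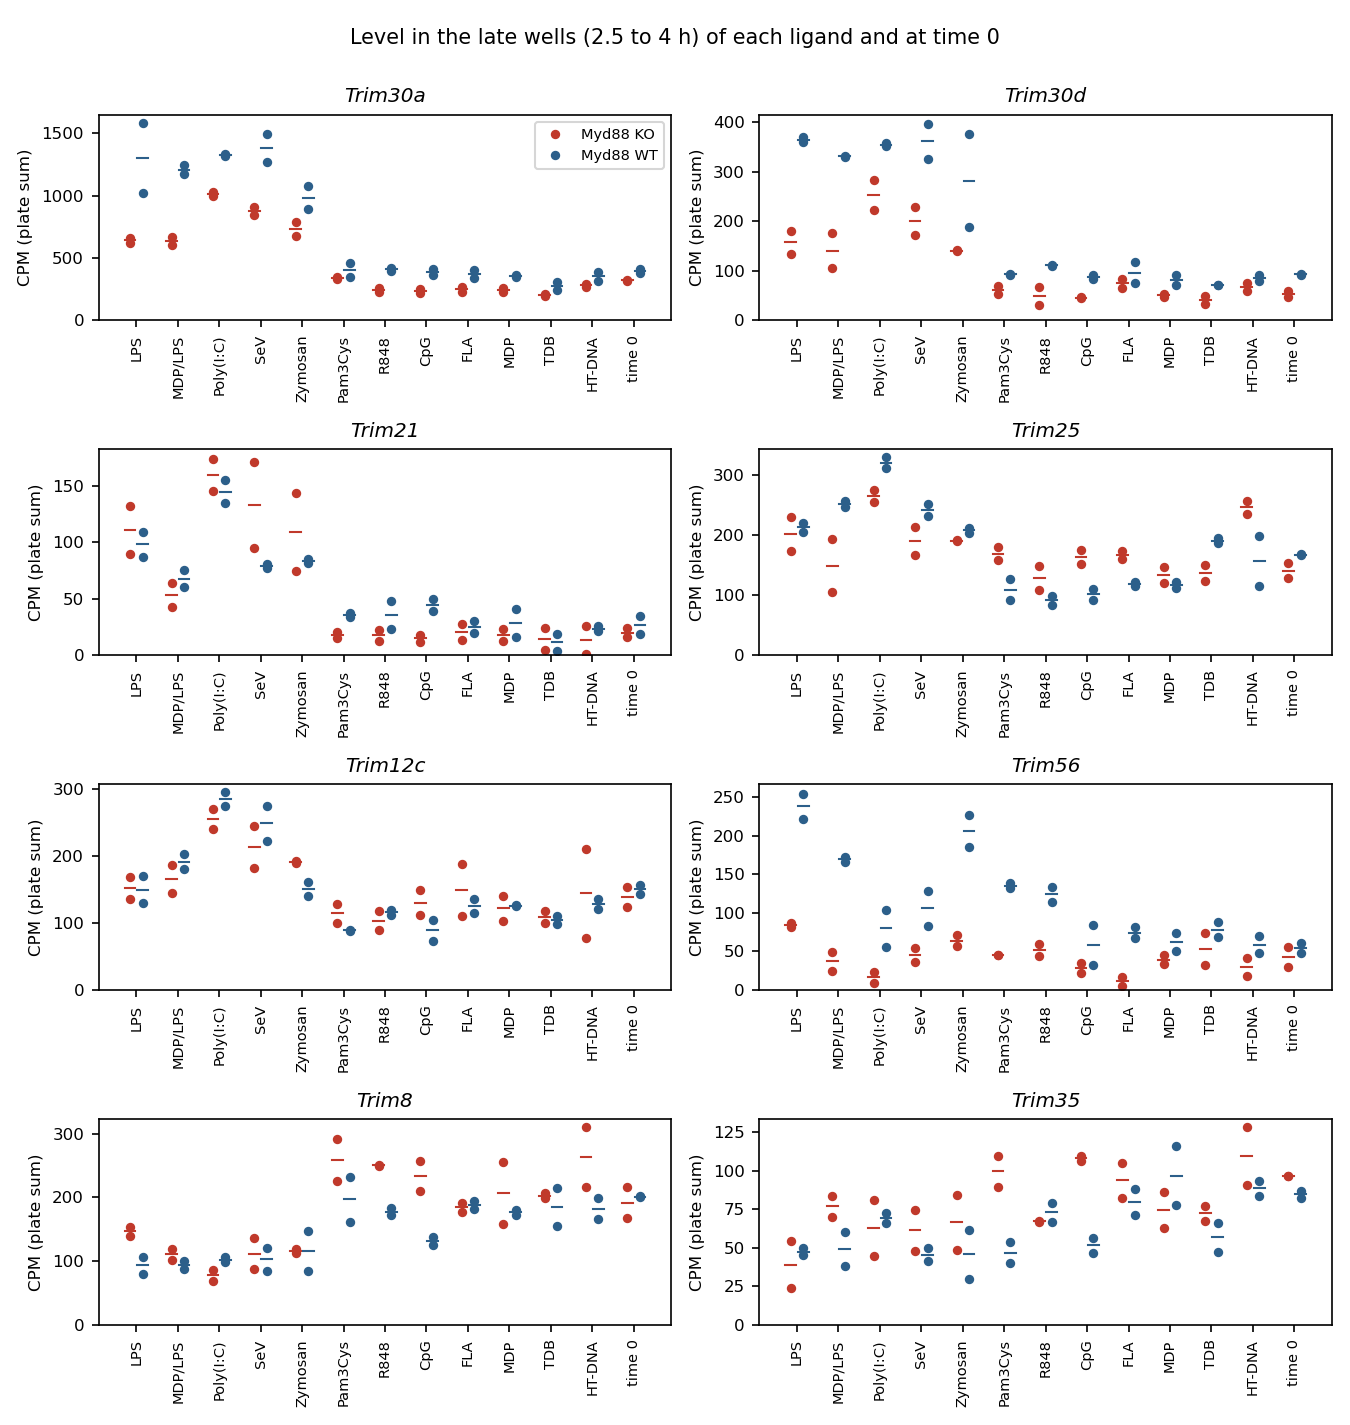
CPM of the late plate sums of each ligand and of time 0 for 8 members in Myd88 KO (red, left of each pair) and WT cells (blue). Points are the 2 plates and bars their mean. The Trim30a, Trim30d and Trim21 panels are high with the first 5 ligands, the WT points of Trim56 are high with LPS, MDP/LPS and Zymosan, and Trim8 is low with the first 5.

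Trim26 and Trim12a each had 1 late call. Trim26, a ligase known to act on antiviral signalling, rose with MDP/LPS in WT cells to 103 and 110 CPM, against 45.9 and 42.9 CPM at time 0 (1.60 ± 0.47, adjusted p = 0.0186). With LPS it stood at 127 and 62.6 CPM in KO and 99.6 and 83.1 CPM in WT cells, not called, with adjusted p of 0.066 and 0.063. Trim12a, the neighbour of Trim34a, rose with SeV in WT cells to 80.7 and 123 CPM, against 31.2 and 32.2 CPM at time 0 (1.98 ± 0.54, adjusted p = 0.0161). In KO cells Trim12a with SeV stood at 74.6 and 83.3 CPM, against 33.9 and 29.9 CPM at time 0, not called (1.58 ± 0.53, adjusted p = 0.0867). Without WT replicate 1 or 2 these calls ended, at 1.72 and 1.55 for Trim26 and at 2.19 and 1.67 for Trim12a.

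Most member calls were in the late sums, which are also the deepest of the 3 time classes, and the difference between time classes was not tested. Early sums gave no member call in either genotype (0.229% of gene and ligand tests were called), and middle sums gave 3 in 768 member tests (0.862% of all such tests were called). These were a rise of Trim30a with LPS in WT cells (0.85 ± 0.25, adjusted p = 0.0377), a rise of Trim25 with LPS in KO cells (0.92 ± 0.27, adjusted p = 0.0365) and a fall of Trim12c with MDP/LPS in KO cells (-1.29 ± 0.34, adjusted p = 0.0166). None of the 3 was called without WT replicate 1 or 2, and the 2 in KO cells also ended without either KO replicate. Single wells show the course of Trim30a. With LPS its wells held 350 and 355 CPM at 2 h and 870 and 875 CPM at 4 h in KO cells. In WT cells the Trim30a wells held 747 and 773 CPM at 2 h and 1979 and 1296 CPM at 4 h with LPS. With Poly(I:C) Trim30a was still at 316 and 377 CPM at 2 h in KO and at 378 and 372.5 CPM in WT cells, and at 4 h it was at 1570 and 1734 CPM in KO and at 1757 and 2232 CPM in WT cells.

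**Figure D3:**
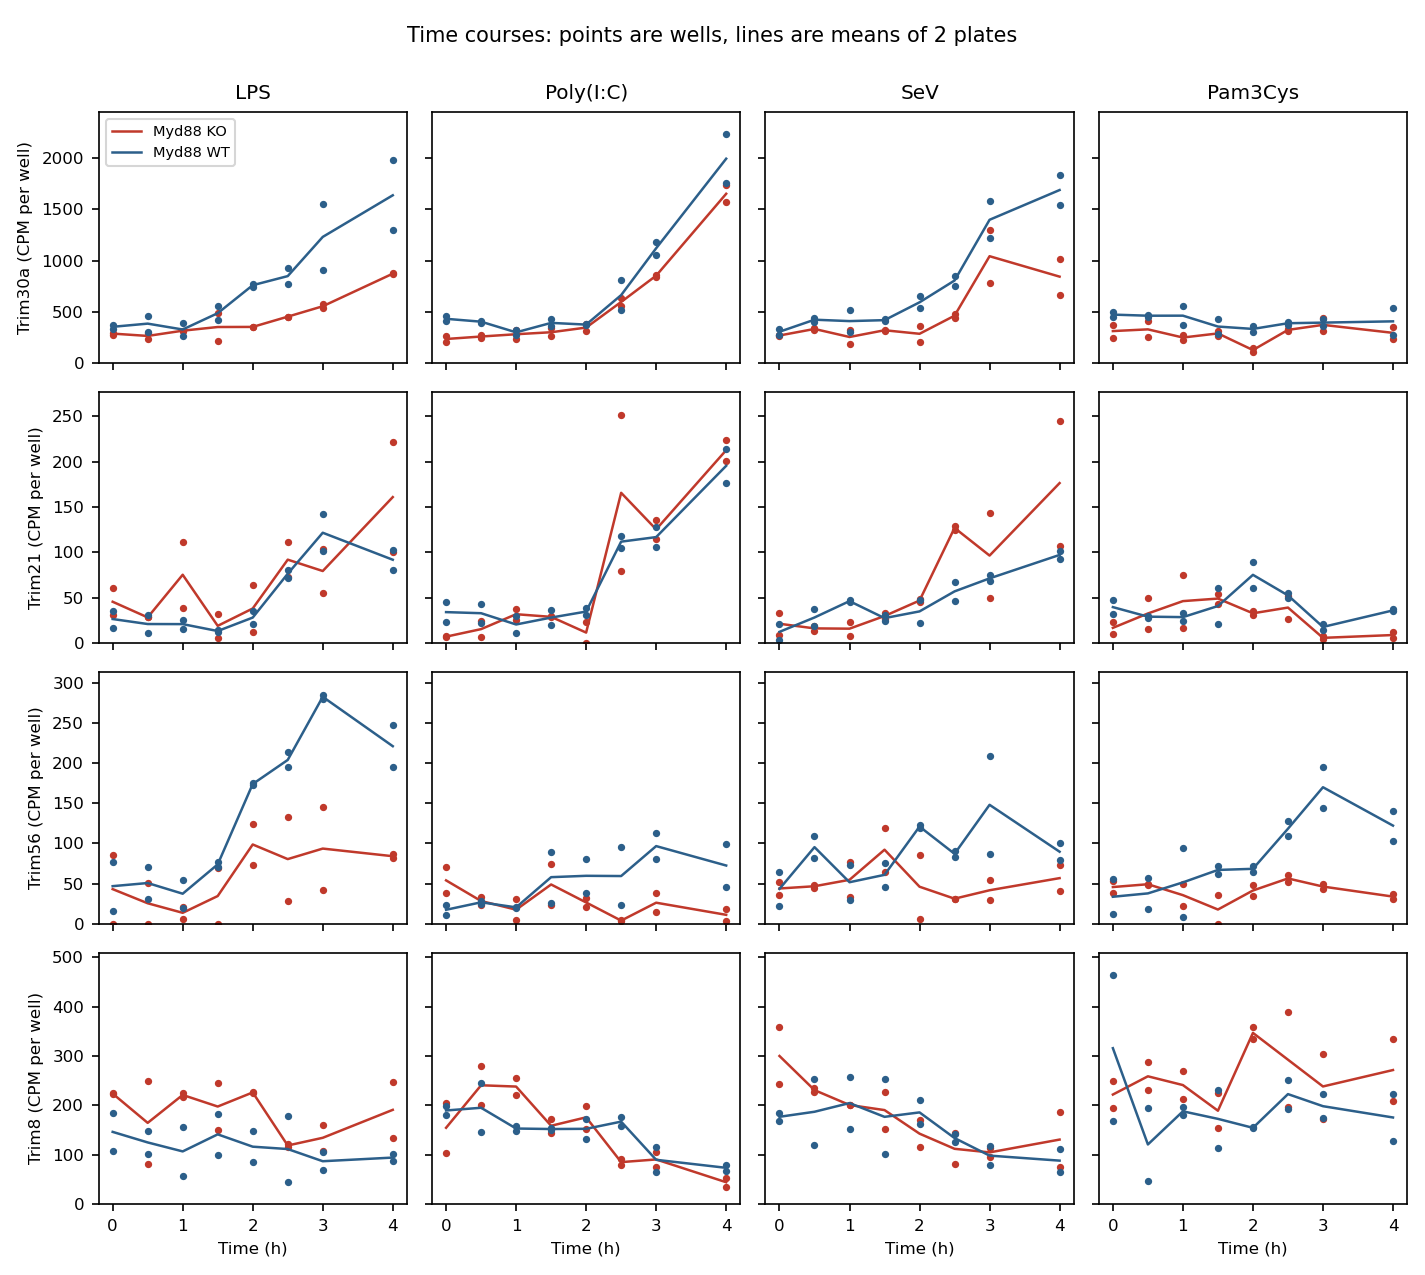
CPM per well against time (h) for Trim30a, Trim21, Trim56 and Trim8 with LPS, Poly(I:C), SeV and Pam3Cys, in Myd88 KO (red) and WT cells (blue). Points are wells and lines the mean of 2 plates. Trim30a with Poly(I:C) stays near its start until 2 h and climbs to 4 h, and Pam3Cys leaves it low.

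Ligands of receptors that use Trif were then set against ligands that use Myd88, late wells only and with no time 0 well. The first set is LPS, MDP/LPS and Poly(I:C), and the second is Pam3Cys, R848, CpG and FLA. Placing FLA in the second set is a choice made here, since the labels do not spell the name out. In late KO sums Pam3Cys, R848, CpG and FLA raised 1, 2, 1 and 1 genes, against 202, 195, 161 and 51 in WT sums. The KO ratio therefore sets the first set against ligands with almost no calls, unlike the WT ratio. Neither it nor its difference between genotypes is a plain measure of preference for Trif or Myd88 ligands. In KO cells 7 members were higher with the first set (8.64% of all genes) and 2 lower (7.56%). In WT cells 9 members were higher (5.04% of all genes) and 1 lower (1.76%). Trim30a, Trim30d, Trim26, Trim21, Trim25 and Trim12c were higher in both genotypes. Trim12a, Trim34a and Trim30b were higher in WT cells and Trim13 in KO cells. The WT log2 ratio of Trim30b was 4.13 (edgeR adjusted p = 0.000717) and has no SE, because a group had no count. Its mean WT levels were near the floor, at 14.0 CPM with the Trif ligands and 1.3 CPM with the Myd88 ligands.

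Trim21 held 42.7, 110.8 and 174 CPM (lowest, median and highest of 6 plate sums) with the Trif ligands in KO cells, against 11.2, 16.4 and 27.5 CPM over 8 plate sums with the Myd88 ligands. In WT cells these were 60.1, 98 and 155 CPM with the Trif ligands, against 19.9, 35.3 and 49.4 CPM with the Myd88 ligands. The log2 ratio of Trim21 was 2.67 ± 0.34 in KO and 1.68 ± 0.31 in WT cells. Trim26 held 60.8, 80.1 and 127 CPM with the Trif ligands in KO cells, against 21.4, 41.2 and 45.8 CPM with the Myd88 ligands, a ratio of 1.48 ± 0.27. In WT cells Trim26 held 83.1, 101.1 and 110 CPM with the Trif ligands, against 26.4, 32.9 and 39.1 CPM with the Myd88 ligands, a ratio of 1.71 ± 0.26. For both genes the sets of plate sums did not overlap in either genotype, a trait not counted over all genes. Trim34a, a relative of human TRIM34, was called in WT cells alone, with ratios of 0.84 ± 0.38 in KO (adjusted p = 0.121) and 1.48 ± 0.37 in WT cells (adjusted p = 0.00287), and its difference between genotypes was not called (adjusted p = 0.738). Without WT replicate 2 the WT ratio was 1.54 for Trim21 (adjusted p = 0.122) and 1.44 for Trim12a (0.166). Trim34a had 1.53 without either WT plate, with adjusted p of 0.24 and 0.221, and Trim30b was not called without either. The KO ratio of Trim12c was 0.43 without KO replicate 1 (0.191).

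For 2 members the ratio itself differed between genotypes, among the 3.07% of all genes that did. Trim25 in WT cells held 205, 252.5 and 331 CPM with the Trif ligands, against 83.2, 105 and 127 CPM with the Myd88 ligands. In KO cells it held 105, 212 and 275 CPM with the Trif ligands, against 108, 159 and 180 CPM with the Myd88 ligands. The ratios were 0.54 ± 0.14 in KO and 1.47 ± 0.14 in WT cells, a KO minus WT difference of -0.93 ± 0.20 (edgeR adjusted p = 0.00091). The WT levels with the Myd88 ligands lay below both WT time 0 plates. The late changes of Trim25 in WT cells were -0.53 ± 0.26 with Pam3Cys, -0.73 ± 0.26 with R848 and -0.54 ± 0.26 with CpG, none of them called (adjusted p = 0.513, 0.147 and 0.525). In KO cells the same changes were 0.23, -0.05 and 0.24. The difference of Trim25 was -0.95 without WT replicate 1 (adjusted p = 0.124) and -0.91 without WT replicate 2 (0.2), and it stayed below 0.05 without either KO plate. Its KO ratio was 0.35 without KO replicate 1 (0.299).

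Trim13, a ligase anchored in the endoplasmic reticulum, was the other. In KO cells it held 4.6, 13.7 and 39.4 CPM with the Trif ligands, against 0.0, 4.0 and 8.4 CPM with the Myd88 ligands. In WT cells it held 10.6, 26.3 and 30.1 CPM with the Trif ligands, against 5.5, 27.6 and 46.8 CPM with the Myd88 ligands. The ratios were 2.60 ± 0.56 in KO and 0.14 ± 0.44 in WT cells, and the difference was 2.46 ± 0.72 (adjusted p = 0.031). The KO plates were unequal: Trim13 with LPS was at 4.6 CPM on replicate 1 and 38.9 CPM on replicate 2. Without KO replicate 2 the KO ratio of Trim13 was 1.11 (adjusted p = 0.333) and the difference 0.94 (0.676). The difference was 2.83 without WT replicate 1 (0.341) and 2.13 without WT replicate 2 (0.781).

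**Figure D4:**
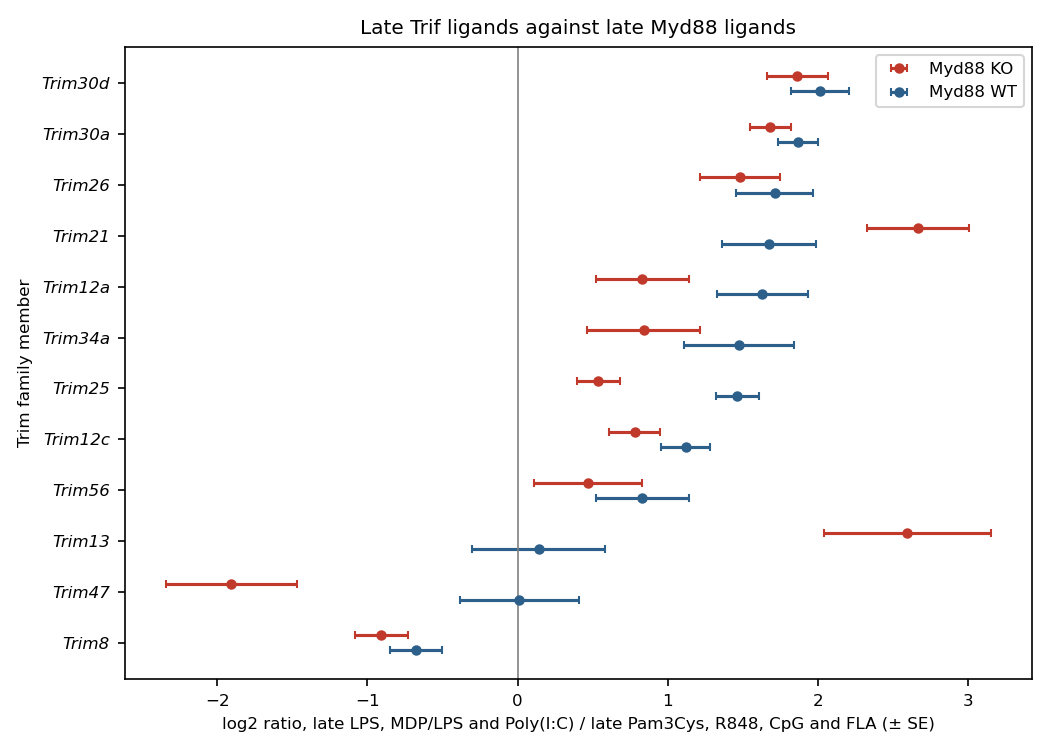
Log2 ratio of the late LPS, MDP/LPS and Poly(I:C) wells over the late Pam3Cys, R848, CpG and FLA wells, with SE, for 12 members called in some comparison, in Myd88 KO (red, upper) and WT cells (blue). Trim30b is left out because it has no SE, since in each genotype at least 1 of its groups has no count. The points of Trim25 and Trim13, the members whose difference between genotypes was called, lie apart. Those of Trim47 and Trim21 also lie apart, with a difference that was not called. Trim8 is below 0 in both.

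Trim8, a ligase known in the mouse to modulate Toll-like receptor signalling, was called lower late with 1 ligand in 1 genotype. It was 1 of 32 members tested, about the share of all genes that fell in this comparison. With Poly(I:C) it stood at 68.8 and 86.4 CPM in KO cells, against 216 and 167 CPM at time 0, a change of -1.15 ± 0.31 (adjusted p = 0.00787, 3.09% of all genes fell). In WT cells it stood at 106 and 98.3 CPM with Poly(I:C), against 202 and 200 CPM at time 0, a change of -0.78 ± 0.31, not called (adjusted p = 0.164). With LPS, MDP/LPS and SeV the changes of Trim8 were -0.15, -0.54 and -0.50 in KO cells and -0.78, -0.77 and -0.66 in WT cells, none of them called. In CPM, both late plates of each of these groups lay below both time 0 plates of the same genotype. How many of all genes do so was not counted. The TMM-scaled LPS change in KO cells, -0.15 ± 0.31 (edgeR unadjusted p = 0.624), was near the median of -0.12 over all genes. Between ligand sets Trim8 was lower with the Trif ligands in both genotypes. It held 68.8, 110 and 154 CPM in KO cells, against 178, 238 and 292 CPM with the Myd88 ligands, a ratio of -0.91 ± 0.18 (adjusted p = 2.15e-05). In WT cells it held 79.8, 98.9 and 106 CPM with the Trif ligands, against 126, 177 and 232 CPM with the Myd88 ligands, a ratio of -0.67 ± 0.17 (adjusted p = 0.00407). Wells of Trim8 with Poly(I:C) held 199 and 153 CPM at 2 h and 53.3 and 35.4 CPM at 4 h in KO cells, and 173 and 132 CPM at 2 h and 67.6 and 79.4 CPM at 4 h in WT cells. The Poly(I:C) change of Trim8 in KO cells was -0.74 without KO replicate 1 (adjusted p = 0.316), -1.12 without WT replicate 1 (0.0523) and -1.10 without WT replicate 2 (0.055). Its WT ratio was -0.73 without WT replicate 1 (0.251) and -0.57 without WT replicate 2 (0.649).

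Trim47 was lower with the Trif ligands in KO cells, at 2.6, 5.7 and 8.5 CPM, against 0.0, 31.0 and 50.3 CPM with the Myd88 ligands (-1.91 ± 0.44, adjusted p = 0.000394). In WT cells both sets were low, at 5.7, 7.6 and 9.7 CPM with the Trif ligands and 4.0, 7.0 and 15.1 CPM with the Myd88 ligands, a ratio of 0.01 ± 0.40. The difference between genotypes had an adjusted p of 0.0544. Without KO replicate 2 the KO ratio was -0.31 (adjusted p = 1). Trim47 lies on chr11:116105752-116127210 and overlaps Trim65 on the same strand, so tags of these genes cannot be told apart with certainty.

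The change was also averaged over all 12 ligands. This mean late change was called for no member in KO cells (1.24% of all genes) and for Trim30a and Trim30d in WT cells (2.11% of all genes rose), at 0.77 ± 0.19 (adjusted p = 0.00629) and 0.91 ± 0.28 (adjusted p = 0.0437). Both calls ended without WT replicate 1 or 2, at 0.72 and 0.81 for Trim30a and 0.91 and 0.88 for Trim30d. In KO cells the same 2 stood at 0.44 ± 0.19 and 0.84 ± 0.28 with adjusted p of 0.433 and 0.174. Trim56 stood at -0.08 ± 0.42 in KO and 1.09 ± 0.46 in WT cells, not called (adjusted p = 1 and 0.258). At time 0 no member was called between KO and WT cells (0.275% of all genes were). The difference between genotypes of the late change was called for no member with any ligand (0.147% of all such tests). At an unadjusted p under 0.05 stood 14 of 384 of these member tests (3.65%, against 3.2% of all tests).

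The share of all genes that passed in no comparison was not counted, and 19 of the members tested passed in none. Of the 8 among them with the highest CPM, Trim35, Trim28 and Trim27 had a 95% interval of the mean late change within 1 log2 unit either way in both genotypes. The mean includes the 7 ligands with no member call, and the called members Trim25, Trim12c and Trim8 also met this limit, so it bounds the mean and does not separate unchanged from changed members. Trim28, the corepressor that brings histone methylation to silenced repeats, stood at 12.5, 41.0 and 91.5 CPM (lowest, median and highest of 24 late plate sums) in KO cells, against 62.4 and 53.8 CPM at time 0. In WT cells it stood at 17, 39.4 and 59.7 CPM, against 55.5 and 53.7 CPM at time 0. Its mean late change was -0.35 (95% interval -0.95 to 0.25) in KO and -0.37 (-0.97 to 0.23) in WT cells. Trim35 stood at -0.25 (-0.77 to 0.27) in KO and -0.32 (-0.84 to 0.20) in WT cells, and Trim27 at -0.09 (-0.69 to 0.51) in KO and -0.23 (-0.83 to 0.36) in WT cells. Single changes were less precise and reached -1.48 ± 0.51 for Trim28 with HT-DNA in KO cells (unadjusted p = 0.00468, adjusted p = 0.389), -1.10 ± 0.46 for Trim28 with MDP/LPS in WT cells (0.019, 0.195) and -1.07 ± 0.41 for Trim35 with LPS in KO cells (0.00987, 0.14).

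The other 5 of the 8, Trim36, Trim33, Trim44, Trim24 and Trim41, had intervals that passed this limit. Trim36 in WT cells reached an upper bound of 1.03. Trim33, which acts on Smad signalling, reached a lower bound of -1.07 in KO cells. Trim41 had an interval of -2.02 to 0.015 in KO cells, with late plate sums of 0.0 to 28.8 CPM. The members below these in CPM, such as Trim11, Trim2, Trim32 and Trim37, gave intervals wider still, and changes of the size seen in Trim25 were not detectable for them at this depth.

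**Figure D5:**
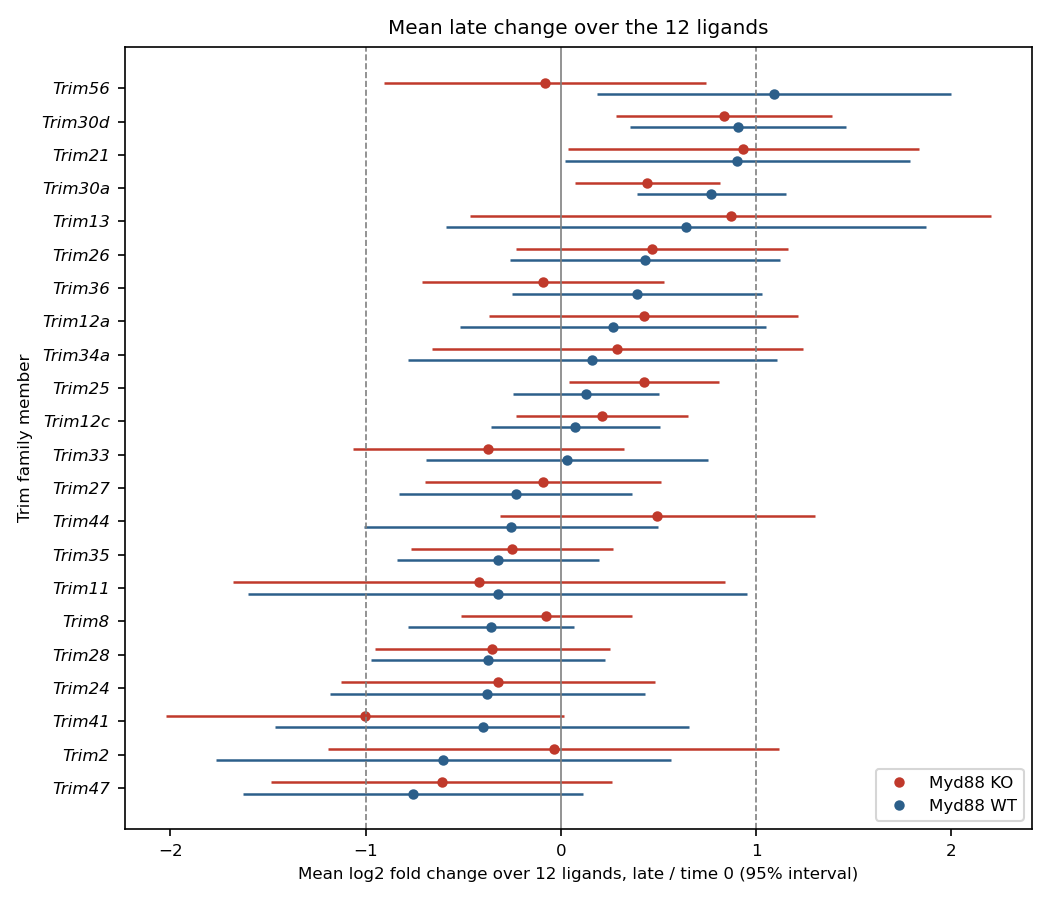
Mean log2 fold change over 12 ligands of the late wells against time 0, with its 95% interval, for the 22 members at 10 CPM or more, in Myd88 KO (red, upper) and WT cells (blue). Dashed lines mark 1 log2 unit either way. The intervals of Trim35, Trim28 and Trim27, and of the called members Trim8, Trim25 and Trim12c, stay between them.

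Lists of genes around the family were counted in the same comparisons. These lists were chosen with earlier results of these data known, so their counts are a description and not independent support. The list of interferon-stimulated genes had 57 genes tested. With Poly(I:C), 52 of them rose in KO and 53 in WT cells, with median changes of 2.57 and 2.48, and with Pam3Cys 0 rose in KO and 2 in WT cells. Of 39 NF-kB primary genes, 28 rose with Poly(I:C) in KO and 21 in WT cells, and with Pam3Cys 0 rose in KO and 26 in WT cells. Over all 10562 genes, 513 rose with Poly(I:C) in KO and 409 in WT cells, and with Pam3Cys 1 rose in KO and 202 in WT cells. Of 37 sensing and signalling proteins 11 rose with Poly(I:C) in each genotype and 1 fell. Ifih1, the RNA sensor MDA5, rose by a log2 of 4.05 ± 0.34 in KO and 3.61 ± 0.34 in WT cells. Nfkbia, which is also in the NF-kB list, rose by 2.52 ± 0.24 in KO and 1.97 ± 0.24 in WT cells. Irf7, an interferon regulatory factor, rose by 1.97 ± 0.28 in KO and 2.05 ± 0.28 in WT cells. Among tripartite motif proteins with other symbols, 5 of 10 were tested. Of them Pml, the organiser of nuclear bodies, rose with Poly(I:C) in KO (2.01 ± 0.64) and WT cells (2.64 ± 0.65).

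Over all plate sums, 2 in each of 74 groups, the genes outside the family whose log2 level was most like that of Trim30a were Slfn5 (Pearson r = 0.90), Mndal (0.88) and Ifih1 (0.88). For Trim30d they were Ifi204 (0.85), Mndal (0.84) and Slfn5 (0.83). For Trim25 the most alike were Fcgr1 (0.60), Irf7 (0.56) and Fam46a (0.52). Trim30a and Trim30d had an r of 0.85 with each other, and Trim25 of 0.36 with Trim30a and 0.26 with Trim30d. These are descriptions over sums that share plates and ligands, with no test.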

How the data were processed

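RNA of Myd88 KO and WT macrophages was measured by a modified SCRB-Seq protocol, a digital count of transcript 3′ ends, per the labels' protocols. The file the authors deposited holds raw counts, whole numbers for each gene in each well. Reads were aligned with BWA to mm10, per the submitters' processing notes, while which annotation, counting program or tag collapsing was used is not given in the sources used here. Intervals therefore cover counting error and the spread of plates only. All 384 columns were matched to wells by name, and 0 columns belonged to other samples.

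Counts were summed per plate and time class, because single wells hold too few counts for most members. One edgeR 4.0.16 quasi-likelihood fit (R 4.3.3, TMM scaling, robust, no covariate besides group) held all groups, so that all of them share the estimate of the spread. The filter filterByExpr with a minimum count of 10 left 10562 genes. The dispersion trend was estimated on 1 gene in 10 in order of abundance and interpolated. Each contrast was adjusted by Benjamini-Hochberg over all genes tested, and 90 contrasts were made. CPM use raw totals whereas log2 changes use TMM scaling, so small differences between them can arise. On simulated counts of 9592 genes, 1% of 2-fold and 30% of 4-fold changes were called in the late LPS comparison of WT cells, and 3% and 62% in the mean late comparison of WT cells.

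Members and gene lists were chosen with earlier results of these data known. Values in full are given for members past the threshold in any comparison. For members with little change the 8 uncalled ones of highest CPM were examined. Genes outside the family are named by smallest p within a list, up to 4 each, and for likeness as the 3 with the highest correlation to each of the 3 members of smallest p. Likeness used log2(CPM + 5). Positions come from GENCODE M21 (mm10) and promoters from RefSeq (GRCm38.p6). Alternatives tried were DESeq2 1.42.0, its size factors within edgeR, no filter, leaving out each plate, a plate term, wells as samples, leaving out wells under 100000 counts, another baseline, and subtraction of a 10% plate-wide background. Plate numbers do not pair KO with WT plates by any label. Within a genotype, the deviations of same-plate groups from their group means had a median correlation of 0.014 over 666 pairs of groups in WT and 0.020 in KO cells.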

Additional observations from a re-analysis of the deposited data

Results flagged for a closer look

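Trim25 and Trim13 were the members whose late ratio of the Trif ligands over the Myd88 ligands differed between genotypes by its own edgeR test. The Myd88 ligands raised almost no genes in KO cells, so the ratio compares unlike sets of wells in KO and WT cells. For Trim25 the KO minus WT difference was -0.93 (adjusted p = 0.00091), with plate sums of 105 to 275 CPM with the Trif ligands in KO cells, against 108 to 180 CPM with the Myd88 ligands, and of 205 to 331 CPM with the Trif ligands in WT cells, against 83.2 to 127 CPM with the Myd88 ligands. Without WT replicate 1 or 2 it was -0.95 and -0.91 (adjusted p = 0.124 and 0.2). For Trim13 the difference was 2.46 (adjusted p = 0.031), and without KO replicate 2 it was 0.94 (adjusted p = 0.676).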

How the results depend on the processing

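No called change of a member turned its sign under any alternative run. The alternatives that scaled by DESeq2 size factors or left out wells under 100000 counts kept all 65 member calls, and DESeq2 kept the 62 that it was run on. Single wells as samples, which share plates and treat wells as replicates, kept all 65 and gave more: 37 late calls up and 12 down in KO cells, 40 up and 8 down in WT cells, 7 early or middle calls, 7 mean late calls in KO and 9 in WT cells, 2 members at time 0 and 1 genotype difference of a late change. DESeq2 gave 25 late calls up and 2 down in KO cells, 1 down in WT cells and 2 mean late calls in KO cells. With late MDP, TDB and HT-DNA wells as baseline the late calls up were 38 in WT cells. Without the filter 8 calls ended, with 0 early or middle calls and 1 mean late call in WT cells, and background subtraction ended 3, with 1 mean late call in WT cells. The cause of these changes was not tested.

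Leaving out each plate in turn gave 6 to 33 late calls up in WT cells and 15 to 17 in KO cells, 0 to 2 down in KO and 0 to 1 in WT cells, 0 to 6 early or middle calls and 0 to 1 genotype differences of a late change. The mean late calls in WT cells ran from 0 to 4. Members higher with the Trif ligands ran from 5 to 8 in KO and 5 to 10 in WT cells, those lower from 1 to 2 in KO and 0 to 1 in WT cells, and the differences between genotypes from 0 to 2. A group left with 1 plate was assumed to vary like the others.

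With the plate within genotype as replicate block, late calls up were 16 in KO and 23 in WT cells and 3 members differed between genotypes in the ligand ratio, and no call was lost. No label pairs KO with WT plates. The correlations given with the methods were taken within a genotype, so they do not bear on that pairing. Early and middle changes were not run with the block or with DESeq2. On simulated counts, pooled over genes of all levels, 1% of 2-fold changes were called in the late LPS comparison of WT cells. At this depth an uncalled member may still change by that much, though the rate at its own level was not measured.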
